A study of Mus musculus with 24 samples.

Results

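The transcriptional response of Phgdh knockout (KO) pancreatic cancer cells to culture with hepatocytes was examined in medium that held both serine and glycine. The cells were HY19636, a mouse pancreatic ductal adenocarcinoma (PDAC) line. The comparison set 3 KO libraries from coculture with hepatocytes against 3 KO libraries from cells grown alone (monoculture), 6 of the 24 libraries of the series. Both groups carried the Phgdh knockout and both received serine and glycine, so that the presence of hepatocytes was the labelled difference. The other groups that appear below are wild-type (WT) cells with serine and glycine, in monoculture and coculture, and KO cells in the same cultures in medium free of serine and glycine. Of 54532 genes, the 12061 with an FPKM (a read count divided by gene length and by depth) of at least 1 in at least 3 of the 24 libraries were tested. Of these, 3 passed that filter only through the 3 cocultures described here and had to differ. Phgdh, phosphoglycerate dehydrogenase, opens the route from glycolysis to serine, and the title of the series concerns serine supplied by hepatocytes to pancreatic cancer cells in liver metastasis. The labels do not say whether the KO line was 1 clone, which part of Phgdh was edited, which animal or line gave the hepatocytes, how the cancer cells were parted from them or how long the cultures lasted. They number the replicates without naming separate cultures, and a p-value here gauges no more than how these libraries scatter, a scatter that may be technical. In such bulk libraries fewer cells of a type and less RNA per cell cannot be told apart.

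Of the gene lists examined, that of the hypoxia response had the highest median change in coculture. The lists were chosen with earlier results of these data known, so this rank and the shares given below are descriptions. In cells with enough oxygen, prolyl hydroxylases of the EGLN family mark the alpha subunits of hypoxia-inducible factors (HIF) for destruction by the VHL ubiquitin ligase. When oxygen falls, HIF accumulates, binds short DNA elements with a core of ACGTG or GCGTG, and raises genes for glucose uptake, glycolysis, blood vessel growth, matrix modification and the removal of mitochondria. PDAC grows in poorly perfused tissue, and this programme is a familiar part of its biology. Oxygen is not among the labelled variables of the series.

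Between 16130298 and 23479425 reads per library were assigned to genes in the 6 libraries. Replicate 1 of the monocultures stood apart from replicates 2 and 3. Its Pearson correlations with them were 0.967 and 0.970 over the tested genes, while replicates 2 and 3 correlated at 0.993. Between replicates 2 and 3 themselves, 102 genes differed by over 2-fold. In replicate 1, 120 genes lay at least 2-fold above and 339 at least 2-fold below the mean of the other monocultures. Because of this the main counts are also given without it. Hepatocyte RNA was near its floor. Albumin (Alb) had 1 read in the 3 monocultures together and 1 read in the 3 cocultures, and 17 of 23 hepatocyte markers, among them Ttr, Hp, Fgb, Cyp2e1 and Apoc3, had no read in coculture. The summed FPKM of the 23 was 17.1 to 20.1 in monoculture and 27.3 to 29.6 in coculture, and was carried by Hnf4a, a transcription factor gene at 13.4, 16.0 and 15.2 in the monocultures and 26.6, 24.7 and 26.4 in the cocultures. The ductal markers fitted the PDAC label, with keratin genes Krt18 at 1439 to 1476 FPKM and Krt8 at 786 to 803 in coculture, although Epcam reached only 1.30. Summed macrophage markers were 2.85 to 4.09 in monoculture and 3.40 to 4.89 in coculture, ranges that overlap. Liver endothelial markers summed to 2.41 to 2.55 in monoculture and 2.95 to 3.64 in coculture. Of the 2 endothelial markers tested, Egfl7 rose (log2 change 0.53) and Vwf fell (−0.42). Stellate cell markers did not exceed 0.112, acinar and islet markers 0.526 or lymphocyte and neutrophil markers 0.644. Cholangiocyte markers summed to 637 to 713 FPKM in monoculture and 1549 to 1610 in coculture. Of them Krt19, Krt7, Sox9 and Epcam also stand among the ductal markers. That sum was carried by Krt19, at a mean of 185 in monoculture and 1102 in coculture. Spp1 went from a mean of 391 to 356 and Sox9 from 7.96 to 5.37. Of the 6 cholangiocyte markers tested, 4 rose and 1 fell. The part of these marker differences in the results was not tested.

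Phgdh itself (ENSMUSG00000053398, chromosome 3, 98313170 to 98339990) was far from absent in the libraries labelled KO. Its FPKM was 372, 548 and 529 in the KO monocultures and 885, 869 and 868.1 in the cocultures. All 3 cocultures were above all 3 monocultures, replicate 1 of the monocultures being the lowest. The log2 change was 0.88 ± 0.12 (adjusted p = 5.86e-06) and 0.70 without that library. The WT cells with serine and glycine were at 922 ± 16.6 in monoculture and 1300.0 ± 55.2 in coculture (mean ± SD, n = 3). This gene total does not check the knockout, since transcripts of an edited gene can still be read.

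Coculture moved a large share of the transcriptome, and the large changes were mostly rises. All changes are given as log2 differences, coculture minus monoculture, of log2(FPKM + 1), with standard errors. That scale understates the change of genes at low FPKM. With a pseudocount of 0.1 the change of the matrix gene Loxl2, for example, was 3.66 in place of 1.62, and with 5 that of the peptide gene Adm was 2.35 in place of 3.99. The threshold for a call was an adjusted p under 0.05 from limma. Calls numbered 4824 (40.0%), with 2429 genes up (20.1%) and 2395 down (19.9%) in coculture. When FPKM were rescaled to plain library totals the split was 1967 higher and 3271 lower, so the balance of small changes depended on the scaling. The balance of large changes was uneven: 371 genes rose at least 2-fold (3.08%) and 32 fell at least 2-fold (0.265%). At least 4-fold, 55 rose and 1 fell, and at least 8-fold, 13 rose and 0 fell. Without monoculture replicate 1, 2313 genes were higher (19.2%) and 2180 lower (18.1%). With only the 6 libraries in the model the calls dropped to 2840, with 1578 higher and 1262 lower. Of the 371 genes that rose at least 2-fold, 364 were called whichever of the 6 libraries was left out, and so were all 55 that rose at least 4-fold.

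Regulators of HIF itself were among the hypoxia and HIF target genes that rose. Egln3 (ENSMUSG00000035105, chromosome 12, 54178981 to 54203860, GRCm38) encodes a hydroxylase that acts on HIF and is itself raised by HIF. Its FPKM was 6.08, 6.94 and 7.54 in the 3 monocultures. In the 3 cocultures it was 119.7, 120.2 and 123. The groups lay far apart, with a ratio of means of 17.6, and the log2 change was 3.96 ± 0.07 (limma adjusted p = 2.03e-18). Egln1, the main oxygen sensor of the family, went from 23.4, 23.9 and 25.5 to 134, 140.0 and 130.5 (2.43 ± 0.07). Vhl, the recognition subunit of the ligase that removes HIF, rose less, by 0.38 (adjusted p = 0.000635). Of the 38 genes on the list 34 were tested. Among them 31 rose (91.2%, against 20.1% of all genes), 1 fell and 2 did not pass the test, with a median of 1.66 against −0.01 for all genes. The 31 that rose had no overlap between the 3 and 3 libraries, as had 23.3% of all tested genes in that direction. The counts without monoculture replicate 1 were also 31 and 1, with a median of 1.66. Over all alternative settings and left-out libraries 28 to 31 rose, with a median of 1.44 to 1.80. The 4 listed genes that were not tested were Car9, Car12, Lox and Hif3a, whose mean FPKM in coculture was at most 0.299.

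Several listed genes whose products act at mitochondria rose. Bnip3 (ENSMUSG00000078566, chromosome 7, 138890836 to 138909519), which encodes a receptor that directs mitochondria to autophagy, was at 17.0, 16.1 and 17.1 FPKM in monoculture and 157, 156 and 153 in coculture (3.14 ± 0.07, adjusted p = 1.64e-17). Its relative Bnip3l rose by 0.96 ± 0.07. Pdk1, a kinase that shuts the pyruvate dehydrogenase complex, went from 10.9, 9.20 and 10.6 to 35.1, 36.2 and 35.3 (1.70 ± 0.08). No library of one culture type entered the range of the other for these genes. Higd1a, a respiratory chain regulator, rose by 2.01 ± 0.13 and Fam162a, a mitochondrial membrane protein gene, by 2.17 ± 0.07. Ankrd37, a listed ankyrin repeat gene, went from 1.51, 1.42 and 1.58 to 19.4, 19.0 and 19.6 (3.02 ± 0.12).

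Genes of the list that encode secreted factors ranged from steep rises to a fall. Adm (ENSMUSG00000030790, chromosome 7, 110627661 to 110629820), the gene of the vessel-dilating peptide adrenomedullin, was at 0.568, 0.356 and 0.613 FPKM in monoculture and 24.1, 21.3 and 23.8 in coculture (3.99 ± 0.11, adjusted p = 2.43e-16). Angptl4, an inhibitor of lipoprotein lipase, went from 2.67, 2.73 and 2.99 to 52.6, 55.6 and 51.7 (3.84 ± 0.08). Both were far above every monoculture in every coculture. Vegfa, the main angiogenic growth factor, was already abundant in monoculture and rose by less, from 89.2, 103 and 97.7 to 167, 163 and 165 (0.77 ± 0.05). Outside the list, the placental growth factor gene Pgf, a VEGF family member, went from 1.69, 1.89 and 1.48 to 28.02, 26.6 and 29.5 (3.44 ± 0.08). Stc1, a secreted glycoprotein gene, rose by 3.12 ± 0.09, while its paralog Stc2 was the listed gene that fell, from 10.9, 9.72 and 9.74 to 6.40, 6.18 and 6.61 (−0.59 ± 0.06, adjusted p = 3.25e-07).

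Enzymes that modify collagen were a further part of the list. P4ha2, a subunit of collagen prolyl hydroxylase, went from 5.83, 5.66 and 5.92 FPKM to 41.2, 39.5 and 40.1 (2.60 ± 0.07). The lysyl hydroxylase gene Plod2 went from 3.35, 2.74 and 2.86 to 22.8, 22.0 and 22.8 (2.57 ± 0.08). P4ha1 and Plod1 rose by 0.99 ± 0.09 and 0.53 ± 0.09. The lysyl oxidase relative Loxl2, low in all KO cultures, went from 0.0453, 0.137 and 0.117 to 2.26, 2.44 and 2.42 (1.62 ± 0.10). The ER oxidase gene Ero1l, which supplies disulfide bonds, rose by 2.14 ± 0.10. Further listed genes with rises between 1 and 2.1 were the lipid droplet gene Hilpda (2.04), the adenylate kinase gene Ak4 (1.88), the MYC antagonist Mxi1 (1.77) and Ndrg1 (1.53). The mTOR inhibitor gene Ddit4 rose by 1.22 ± 0.29, but monoculture replicate 1 was low at 10.9, 34.3 and 29.1 in order of replicate, and without it the change was 0.74 (adjusted p = 0.0123). With only the 6 libraries in the model its call was lost (adjusted p = 0.0768). Neither Pfkfb3 (0.07 ± 0.09, adjusted p = 0.615) nor Pfkfb4 (−0.09 ± 0.08, adjusted p = 0.377), which encode regulators of glycolytic flux, passed the test.

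Promoters of 4 of these genes are shown as examples. Each went up at least 2-fold and holds the core of the HIF element near the RefSeq start (GRCm38.p6). Others not shown, such as Adm and Egln3, also meet both conditions. Tpi1 and Gpi1 rose at least 2-fold without a match in the 250 bases before the start. A second start of Ldha had 1 GCGTG and no ACGTG there. The 250 bases before the start are given 5′ to 3′ on the gene's strand, for Bnip3 from chr7:138909507-138909756, minus strand, for Ankrd37 from chr8:45999851-46000100, minus strand, for Pgk1 from chrX:106186850-106187099, plus strand and for Ldha from chr7:46845554-46845803, plus strand. Capitals mark ACGTG or GCGTG on either strand, neighbouring matches merged.
Bnip3: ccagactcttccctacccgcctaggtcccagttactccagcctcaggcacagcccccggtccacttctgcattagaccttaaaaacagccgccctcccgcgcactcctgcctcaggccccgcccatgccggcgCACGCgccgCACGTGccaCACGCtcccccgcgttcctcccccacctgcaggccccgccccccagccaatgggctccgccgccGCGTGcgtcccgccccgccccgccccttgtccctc
Ankrd37: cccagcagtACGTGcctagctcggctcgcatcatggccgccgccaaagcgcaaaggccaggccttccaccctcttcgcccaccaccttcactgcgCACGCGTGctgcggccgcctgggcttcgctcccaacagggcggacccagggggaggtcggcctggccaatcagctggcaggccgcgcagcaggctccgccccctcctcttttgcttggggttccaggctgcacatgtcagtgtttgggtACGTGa
Pgk1: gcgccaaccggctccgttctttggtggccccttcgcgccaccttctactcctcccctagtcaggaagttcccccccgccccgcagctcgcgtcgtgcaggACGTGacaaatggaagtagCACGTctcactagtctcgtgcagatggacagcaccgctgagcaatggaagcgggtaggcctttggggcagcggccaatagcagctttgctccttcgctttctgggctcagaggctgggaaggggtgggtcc
Ldha: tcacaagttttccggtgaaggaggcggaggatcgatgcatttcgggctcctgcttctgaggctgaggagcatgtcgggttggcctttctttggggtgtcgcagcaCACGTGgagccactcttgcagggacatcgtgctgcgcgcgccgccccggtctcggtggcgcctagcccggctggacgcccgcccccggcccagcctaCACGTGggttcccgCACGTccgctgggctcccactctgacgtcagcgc
In RefSeq windows from 250 bases before to 50 after the start, ACGTG on either strand was found in 50% of the 34 windows of the risen hypoxia genes (22 of 31 genes had a window) and in 50% of the 24 windows of the risen glycolysis genes. It was found in 26.8% of the 10812 windows of tested genes and in 19.6% of all 32851 windows. Among the 320 windows of genes that rose at least 2-fold the share was 27.5%, near that of tested genes. With GCGTG counted too, the shares were 79.4% for the hypoxia list, 79.2% for the glycolysis list, 64% for tested genes and 43.8% for all windows. A match is a description of these letters and not a bound site.

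Genes of nearly every step of glycolysis rose. Of 18 tested genes of the glycolysis and lactate list 16 rose (88.9%, against 20.1% of all genes), 1 fell and 1 did not pass, with a median of 1.29. The glucose carrier Slc2a1 went from 90.9, 102 and 99.3 FPKM to 345, 340.1 and 332 (1.79 ± 0.06). The hexokinase genes Hk1 and Hk2, for the first step, rose by 1.59 ± 0.09 and 1.03 ± 0.05. Of the phosphofructokinase subunits, Pfkp went from 6.02, 5.52 and 5.18 to 36.8, 36.3 and 37.0 (2.52 ± 0.05), Pfkl rose by 1.30 ± 0.07, and Pfkm was the gene that fell (−0.21 ± 0.07). The fall of Pfkm lost its call without monoculture replicate 2 (−0.15) or without coculture replicate 1, with an adjusted p of up to 0.0856, and with only the 6 libraries in the model (0.0993). On the FPKM scale, which is per length, the platelet-type Pfkp lay below the muscle-type Pfkm in every monoculture and above it in every coculture.

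The enzymes of the later steps were among the most abundant transcripts of the cells. Pgk1, which makes the first ATP of the pathway, went from 312, 353 and 345 FPKM to 1331, 1327 and 1332 (1.98 ± 0.05). Ldha, which turns pyruvate to lactate, went from 217, 287 and 279 to 845, 823 and 832 (1.68 ± 0.08). Pkm, the last enzyme before pyruvate, went from 364, 461 and 447 to 1035, 1029 and 1021 (1.28 ± 0.08). In each case the lowest coculture was above 2 times the highest monoculture. Tpi1 (1.38), Pgam1 (1.35), Aldoa (1.25), Gpi1 (1.17) and Eno1 (1.15) moved by similar amounts. The lactate exporter Slc16a3 rose by 2.18 ± 0.19, from 1.11, 2.75 and 2.58 to 13.2, 13.0 and 12.2, and the other carrier Slc16a1 by 0.28 ± 0.05. Gapdh was erratic, at 30.7, 82.3 and 48.2 in the monocultures and 74.2, 23.97 and 115 in the cocultures. It did not pass the test (0.25 ± 1.26, adjusted p = 0.898), and it has near-identical copies in the genome between which reads can be split. Of the genes that rose at least 2-fold, 35 of 371 (9.43%) stood on the hypoxia or glycolysis lists. These lists held 34 and 18 of the 12061 tested genes, with Slc2a1 on both.

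**Figure D1:**
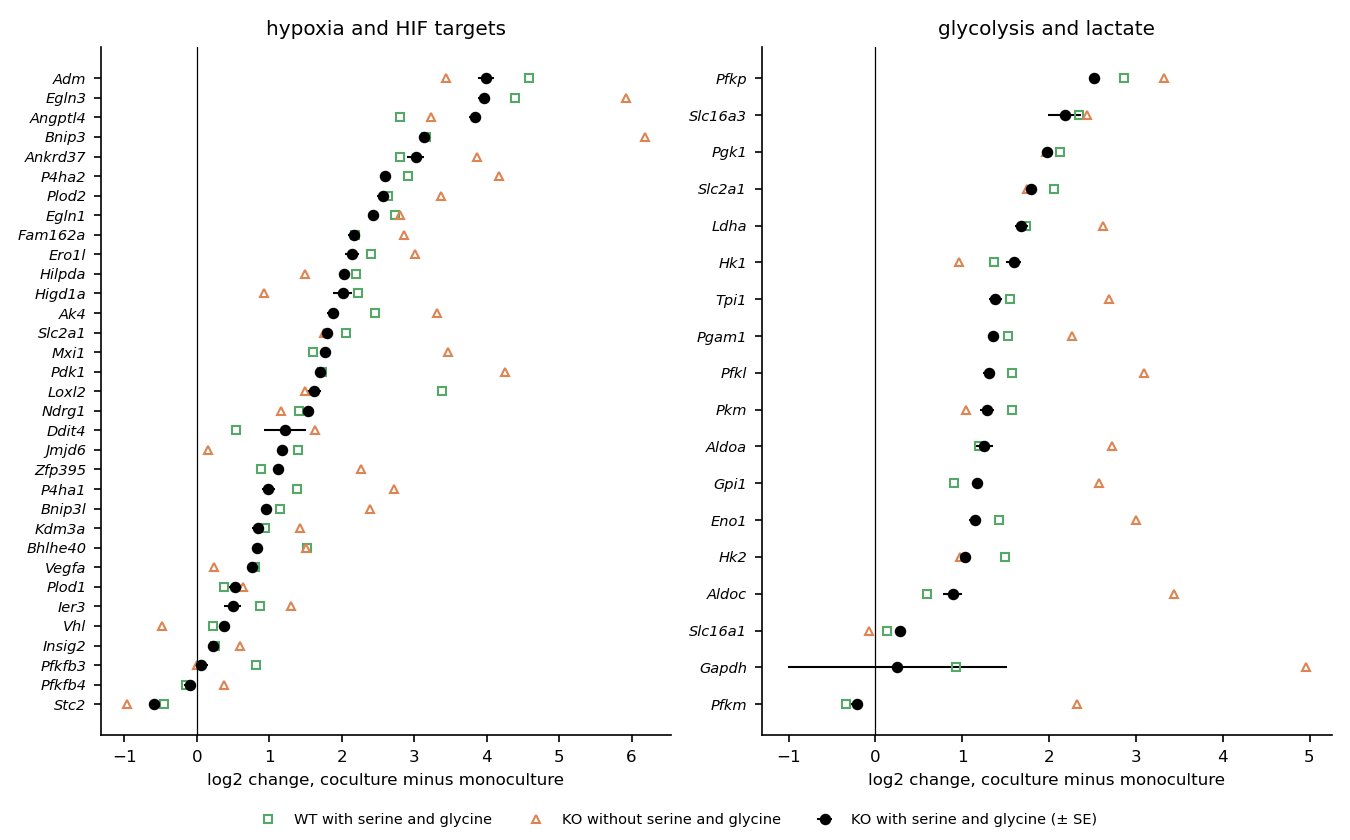
Log2 change in coculture of the reported genes of the hypoxia and glycolysis lists, for KO cells with serine and glycine (filled circles, bars ± SE from limma), WT cells with serine and glycine (squares) and KO cells without them (triangles). Nearly all circles lie to the right of 0, from 3.99 for Adm down to −0.59 for Stc2 on the left, and the wide bar on the right is Gapdh.

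Among the genes of mitochondrial oxidation, called falls outnumbered called rises, and many genes were not called. Of 25 tested genes of the TCA cycle and pyruvate entry 13 fell and 3 rose (median −0.23), and the largest rises were the pyruvate dehydrogenase kinases Pdk1 (1.70) and Pdk3 (0.85), which block pyruvate entry. The malate dehydrogenase gene Mdh1 fell from 47.1, 47.8 and 48.6 FPKM to 31.9, 32.2 and 34.1 (−0.53 ± 0.05), and the isocitrate dehydrogenase subunits Idh3a and Idh3b were at −0.46 and −0.48. Of 13 mitochondrially encoded genes 6 fell and 0 rose (median −0.36, 4 without monoculture replicate 1 or 3 and 2 with only the 6 libraries in the model), led in abundance by mt-Nd1, a complex I subunit, at 2832, 2257 and 2532 in monoculture and 1803, 1820.0 and 1857 in coculture (−0.47 ± 0.09). Of 31 nuclear respiratory chain genes 8 fell and 1 rose, the complex IV subunit Cox7a2 (0.36 ± 0.09; 2 rose without monoculture replicate 2). The shares of called falls, 52% of the TCA list, 46.2% of the mitochondrially encoded genes and 25.8% of the respiratory list, compare with 19.9% of all genes. With only the 6 libraries in the model 8 genes of the TCA list and 4 of the respiratory list fell.

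The serine and one-carbon enzymes were called in both directions. Of 26 tested genes 5 rose and 7 fell, or 19.2% and 26.9% against 20.1% and 19.9% of all genes, with a median of −0.08. When FPKM were rescaled to plain library totals 5 rose and 12 fell. Mthfd1l, the mitochondrial enzyme that releases formate from folate, rose most, from 31.4, 29.8 and 29.4 FPKM to 63.7, 64.0 and 62.5 (1.05 ± 0.04). Psat1, the second step of serine synthesis, went from 154, 133 and 133 to 175, 179 and 183 (0.35 ± 0.05), while the change of Psph, the third step, was −0.09 ± 0.06 (adjusted p = 0.253). Without monoculture replicate 1 it was −0.16 and was called (adjusted p = 0.0259). The formyl-tetrahydrofolate dehydrogenase gene Aldh1l1 rose by 0.85 ± 0.09 at low abundance, and Gldc of the glycine cleavage system by 0.31 ± 0.08. Its partners Amt (−0.57 ± 0.12) and Gcsh (−0.27 ± 0.06) fell. So did the cytosolic folate enzymes Mthfd1, from 20.6, 25.01 and 22.8 to 16.1, 14.9 and 15.6 (−0.52 ± 0.06), and Shmt1 (−0.47 ± 0.08). Shmt2, the mitochondrial enzyme between serine and glycine, was lower (−0.24 ± 0.08), but lost its call without monoculture replicate 2 or 3, with an adjusted p of up to 0.0888, and with only the 6 libraries in the model (0.149). The palmitoyltransferase subunit Sptlc2, which joins serine to fatty acid in sphingolipid synthesis, fell by 0.42 and the cysteine-forming enzyme Cth by 0.20.

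Targets of ATF4, the transcription factor of the amino acid response, were called at shares near those of all genes. Of 29 tested genes 8 rose (27.6% against 20.1%) and 6 fell (20.7% against 19.9%), with a median of 0.08, or 0.035 without monoculture replicate 1. Rises were in the lipoprotein receptor gene Vldlr (1.02 ± 0.09) and the pseudokinase gene Trib3, which went from 70.0, 118 and 114 to 184, 183 and 181 (0.89 ± 0.15). Falls were in Ddit3, the stress factor CHOP (−0.42 ± 0.06), Atf3 (−0.51 ± 0.06) and the cystine carrier Slc7a11, from 31.8, 24.5 and 25.3 to 19.3, 18.8 and 18.5 (−0.49 ± 0.09). Of 12 amino acid transporters 5 fell (41.7%) and 1 rose, Slc7a7 (0.63 ± 0.10). Without monoculture replicate 1, 2 rose. The number that fell lay between 2 and 6 over the alternative settings and left-out libraries. The glycine carrier Slc6a9 went from 48.8, 48.5 and 49.3 to 38.2, 38.0 and 39.6 (−0.33 ± 0.06).

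Called genes of lipid synthesis were mostly lower in coculture. Of 25 genes of cholesterol synthesis and uptake 12 fell (48.0%, against 19.9% of all genes), 0 rose and 13 were not called (median −0.25). The number that fell was 9 with only the 6 libraries in the model and 17 with plain library totals. Insig1, which retains the sterol-sensing factor SREBP and is itself a target of it, fell from 87.8, 87.7 and 85.3 FPKM to 55.2, 58.0 and 58.0 (−0.60 ± 0.04). The synthesis enzyme Dhcr7 was at −0.54 and Acat2 at −0.52. Of 14 genes of fatty acid synthesis and desaturation 9 fell (64.3%) and 1 rose (median −0.44). The desaturase gene Scd1 went from 246, 194 and 206 to 118, 121 and 116 (−0.85 ± 0.08) and the elongase gene Elovl6 from 5.39, 4.14 and 4.34 to 1.996, 1.76 and 1.92 (−0.95 ± 0.10). Neither gene's groups overlapped. Scd2, the other desaturase, was higher in abundance and its change did not pass the test (0.12 ± 0.07, adjusted p = 0.168). With quantile normalization it was −0.20 and was called. The gene that rose was Me1, the malic enzyme that makes NADPH (0.69 ± 0.09).

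Ribosome assembly genes fell broadly. Of 32 tested ribosome biogenesis genes 24 fell (75% against 19.9% of all genes) and 0 rose, with a median of −0.45, and without monoculture replicate 1 28 fell. Rrp12, a factor for export of ribosomal subunits, went from 7.16, 11.2 and 10.3 FPKM to 4.98, 4.71 and 4.54 (−0.86 ± 0.12). Nolc1, a nucleolar scaffold, went from 50.9, 40.3 and 41.3 to 24.9, 24.2 and 24.3 (−0.82 ± 0.07). The nucleolar helicase Ddx21 (−0.82 ± 0.08) and the processome subunit Heatr1 (−0.82 ± 0.09) fell by like amounts. Of 37 tested ribosomal protein genes 5 fell (13.5%, below the share of all genes) and 0 rose (median −0.03). These counts moved with the setting: 19 fell and 1 rose with quantile normalization (median −0.21), 11 fell with plain library totals, 3 fell with only the 6 libraries in the model, and 4 rose without monoculture replicate 2. Rpl3 went from 863, 851 and 816 to 624, 646 and 646 (−0.40 ± 0.05). Many ribosomal protein genes have processed copies in the genome, so these counts are uncertain.

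Most cell division genes were not called, and most of those called were rises. Of 39 tested DNA replication and S phase genes 14 rose (35.9%, against 20.1% of all genes) and 2 fell (median 0.09, or 0.14 without monoculture replicate 1). The ligase gene Lig1 went from 3.44, 3.75 and 4.03 FPKM to 6.56, 7.04 and 6.14 (0.68 ± 0.08), and the ribonucleotide reductase subunits Rrm1 and Rrm2 rose by 0.65 ± 0.06 and 0.55 ± 0.12. The helicase subunit Mcm2 fell from 18.5, 19.9 and 19.5 to 13.9, 13.5 and 14.1 (−0.45 ± 0.05). Of 27 mitosis genes 9 rose (33.3%) and 0 fell (median 0.10), led by Kif23, a cytokinesis motor (0.70 ± 0.10). The number of risen mitosis genes lay between 2 and 11 over the alternative settings and left-out libraries. The cell cycle inhibitor Cdkn1a rose in the same cells, from 15.6, 21.9 and 23.4 to 89.6, 88.6 and 86.2 (2.08 ± 0.11, adjusted p = 2.14e-11). It was listed with the p53 targets, of which 5 of 22 rose (22.7% against 20.1%) and 7 fell (31.8% against 19.9%). Over the same settings the p53 targets that rose numbered 3 to 6 and those that fell 3 to 8. The apoptosis gene Pmaip1 (1.40 ± 0.09) and Mdm2 (0.66 ± 0.09) rose, and the exonuclease gene Aen (−0.85 ± 0.07) and Zmat3 (−0.64 ± 0.06) fell.

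**Figure D2:**
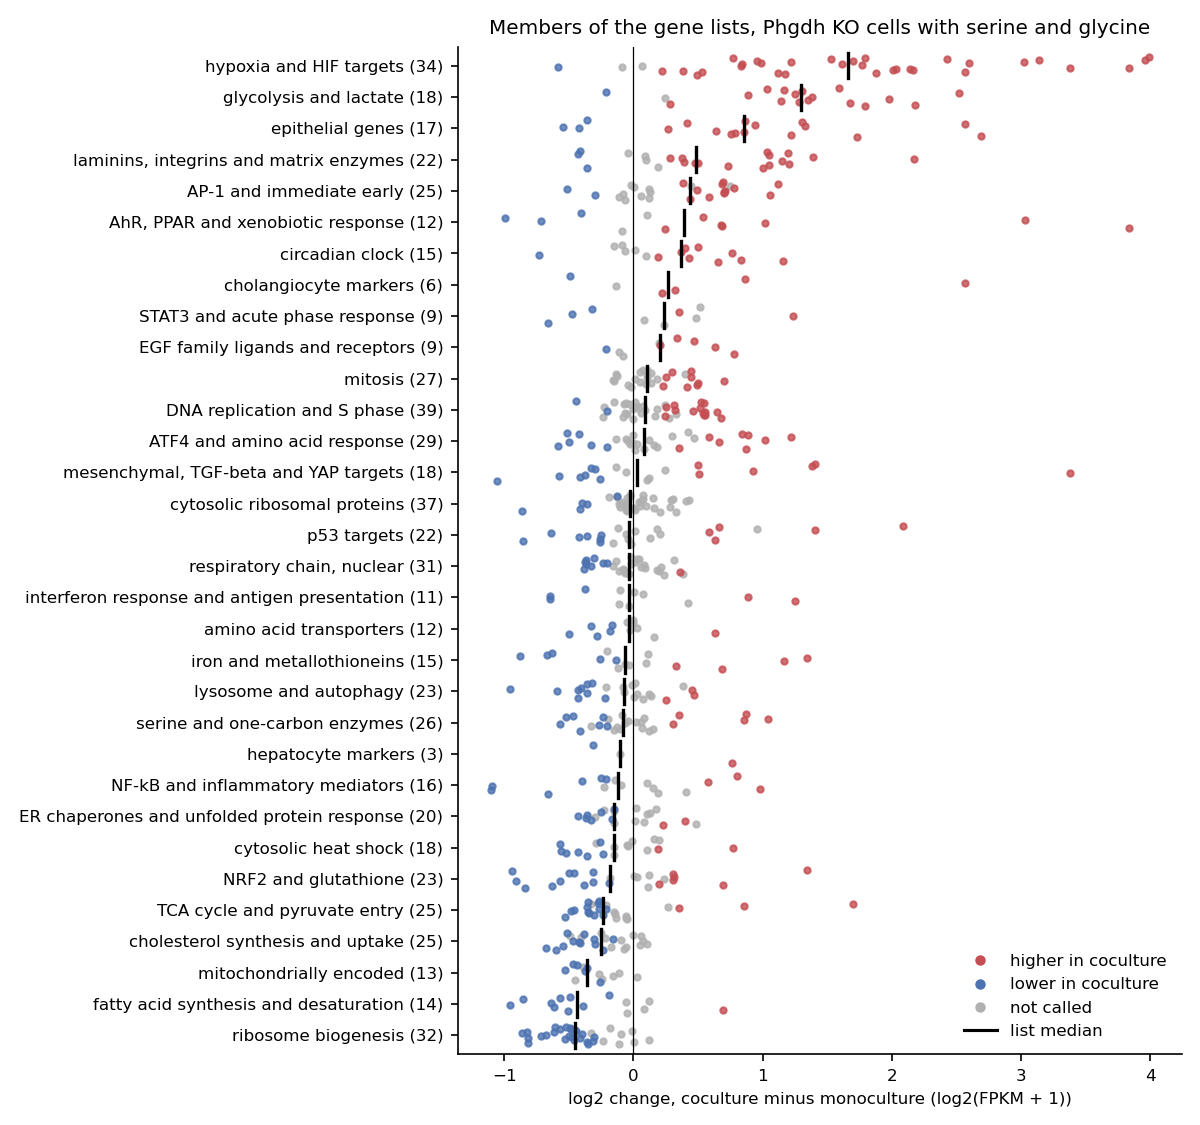
Log2 change in coculture of every tested member of the lists with at least 3 tested members, in KO cells with serine and glycine. Each point is a gene, red and blue points were called higher and lower, and the vertical bar is the list median, from 1.66 in the hypoxia list to −0.45 in ribosome biogenesis; the number of tested genes is in parentheses.

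Most tested epithelial genes were higher. Of the 24 genes on the list 17 were tested. Among them 14 rose (82.4%, against 20.1% of all genes) and 3 fell, with a median of 0.86. Not tested were Epcam, Cldn3, Cldn4, Cldn7, Esrp1, Grhl2 and Ovol1, whose mean FPKM in coculture was at most 1.01. The ductal keratin gene Krt19 (ENSMUSG00000020911, chromosome 11, 100140810 to 100148665) went from 190.1, 179 and 185 FPKM to 1085, 1111 and 1109 (2.57 ± 0.06, adjusted p = 3.72e-17). Sprr1a, a component of the cornified envelope of squamous cells, went from 13.4, 12.2 and 11.9 to 89.6, 85.03 and 84.0 (2.69 ± 0.06), and Ivl, which encodes involucrin of the same structure, from 0.159, 0.514 and 0.328 to 3.18, 3.83 and 3.24 (1.73 ± 0.11). For all these genes the lowest coculture was over 2 times the highest monoculture. The keratin gene Krt23 rose by 1.33 ± 0.05. The exceptions were genes of cell contacts and the apical surface: E-cadherin Cdh1 went from 127, 121 and 123 to 96.4, 93.8 and 97.4 (−0.36 ± 0.04), the tight junction gene Ocln was at −0.42 and the mucin gene Muc1 at −0.55.

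Matrix and adhesion genes rose in most cases. Of 22 laminin, integrin and matrix enzyme genes 15 rose (68.2%, against 20.1% of all genes) and 3 fell (median 0.49). Itga2, a subunit of a collagen receptor, went from 22.4, 17.0 and 16.7 FPKM to 87.7, 88.2 and 86.2 (2.18 ± 0.09). The basement membrane linker Nid1 went from 11.4, 10.8 and 10.8 to 30.4, 31.5 and 29.4 (1.39 ± 0.05). Itgb4 (1.21 ± 0.10) and Lamb3 (1.20 ± 0.11), partners in the attachment of epithelia to laminin, both rose, while Lamc1 fell (−0.43 ± 0.05). The mesenchymal, TGF-beta and YAP list split, with 6 rises (33.3%) and 7 falls (38.9%, against 19.9% of all genes) among 18 genes. Over the alternative settings and left-out libraries the rises numbered 5 to 6 and the falls 3 to 7. Vimentin (Vim) went from 496, 446 and 444 to 1216, 1217 and 1245 (1.41 ± 0.05) and fibronectin (Fn1) from 9.28, 9.26 and 8.97 to 24.8, 26.6 and 25.4 (1.39 ± 0.05). The receptor kinase gene Axl (−1.06 ± 0.08) and the YAP targets Ctgf (−0.57 ± 0.07) and Cyr61 (−0.42 ± 0.06) fell.

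Signalling lists gave smaller and mixed changes, and some of them moved with monoculture replicate 1. Their shares of calls are to be read against 20.1% higher and 19.9% lower of all genes. Of 25 AP-1 and immediate early genes 12 rose (48.0%) and 2 fell (median 0.44), and without that library 10 rose and 3 fell (median 0.20). Fosl2, an AP-1 subunit, went from 7.44, 10.4 and 9.62 FPKM to 21.5, 20.1 and 21.2 (1.12 ± 0.10) and Egr3 rose by 0.78 ± 0.12. Of 9 EGF family genes 5 rose (55.6%) and 1 fell, a fall that was lost when monoculture replicate 1 or 3, or any 1 of the cocultures, was left out. Errfi1, a feedback inhibitor of the EGF receptor, rose by 0.78 ± 0.05 and the ligand gene Btc by 0.63 ± 0.12. Among 16 inflammatory genes 3 rose (18.8%) and 6 fell (37.5%), with the cytokine gene Lif at 0.98, Csf1 at −1.10 and the chemokine gene Ccl20 at −1.09. Over the alternative settings and left-out libraries 3 to 6 of them fell. Of 11 interferon and antigen presentation genes 2 rose (18.2%) and 3 fell (27.3%), near those shares. The class I heavy chain H2-K1 went from 33.3, 46.4 and 44.4 to 102, 98.9 and 96.3 (1.25 ± 0.10) while its partner B2m went from 208, 148 and 148 to 102, 107 and 108 (−0.65 ± 0.11). H2-K1 has near-identical relatives, so its reads are uncertain. Of 9 STAT3 and acute phase genes 2 rose (22.2%) and 3 fell (33.3%), and 5 or 4 rose without monoculture replicate 2 or 3. Of 15 circadian clock genes 9 rose (60.0%) and 1 fell (median 0.37), and 7 rose without monoculture replicate 1 (median 0.24). The clock repressors Bhlhe41 (1.16 ± 0.13) and Bhlhe40 (0.83 ± 0.05) led the rises, and Nr1d2 fell (−0.73 ± 0.09).

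Stress and xenobiotic lists held rises and falls, with a few strong members. Of 23 NRF2 and glutathione genes 6 rose (26.1%, against 20.1% of all genes) and 11 fell (47.8%, against 19.9%). With only the 6 libraries in the model 6 fell, and with quantile normalization 13. Heme oxygenase Hmox1 went from 107, 136 and 135 FPKM to 317, 321 and 322 (1.35 ± 0.09), whereas the glutathione synthesis gene Gclc fell from 58.5, 43.1 and 45.6 to 23.2, 24.8 and 26.8 (−0.94 ± 0.09) and Gstm1 by 0.90. Of 15 iron and metallothionein genes 4 rose (26.7%) and 5 fell (33.3%, 3 fell without monoculture replicate 1). The metallothionein gene Mt1 rose by 1.17 ± 0.09, and the ferritin heavy chain Fth1 went from 4491, 5273 and 5271 to 3256, 3193 and 3227 (−0.63 ± 0.07). The iron importer Slc11a2 (−0.88 ± 0.07) and exporter Slc40a1 (−0.67 ± 0.07) both fell. Of 18 heat shock genes 2 rose and 7 fell (38.9%), with Dnajb1 at 0.77 and the mitochondrial chaperones Hspd1 and Hspe1 at −0.56 and −0.43; 1 rose when any library but monoculture replicate 1 was left out. Of 20 ER chaperone genes 2 rose and 7 fell (35.0%), but 5 rose and 6 fell without monoculture replicate 1 and 4 rose without replicate 2. Of 23 lysosome and autophagy genes 3 rose and 9 fell (39.1%), led by Hexa, a lysosomal hexosaminidase subunit (−0.96 ± 0.08). Of 12 genes of the aryl hydrocarbon receptor, PPAR and xenobiotic list 7 rose (58.3%) and 3 fell. Cyp2s1, a cytochrome P450 gene, went from 6.17, 6.43 and 6.61 to 60.6, 60.2 and 58.4 (3.04 ± 0.06), while Cyp1b1 (−0.99 ± 0.11) and Aldh3a1 (−0.72 ± 0.11) fell.

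Some of the strongest changes lay outside these lists. Selenbp1 (ENSMUSG00000068874, chromosome 3, 94933056 to 94944758), a selenium-binding enzyme that oxidises methanethiol, rose most by the naming rule, from 0.781, 1.36 and 1.13 FPKM to 37.9, 41.0 and 33.1 (4.20 ± 0.14, adjusted p = 1.17e-14). Aqp8, a channel for water and hydrogen peroxide, went from 0.0775, 0.182 and 0.228 to 14.9, 15.7 and 14.3 (3.78 ± 0.11). Arrb1, the gene of beta-arrestin 1, went from 0.515, 0.309 and 0.423 to 14.1, 13.8 and 14.0 (3.40 ± 0.07). These genes were near the low end of the table in monoculture and clearly present in coculture. Kctd11, an adaptor of a cullin ubiquitin ligase, rose by 3.16 ± 0.11.

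The largest falls were smaller and came from other kinds of genes. Vnn1 (ENSMUSG00000037440, chromosome 10, 23894688 to 23905343), a pantetheinase that releases cysteamine, went from 23.99, 17.4 and 18.6 FPKM to 2.86, 3.09 and 3.16 (−2.37 ± 0.13, adjusted p = 1.43e-11) and was the one gene to fall at least 4-fold. The exporter Abcc5 went from 18.0, 16.0 and 16.0 to 5.24, 5.27 and 5.10 (−1.51 ± 0.05) and the organic anion carrier Slco4a1 from 25.4, 30.0 and 29.7 to 10.1, 8.64 and 9.41 (−1.50 ± 0.08). The groups of these genes were apart by at least 2-fold. Further large falls were those of the scramblase gene Plscr2 (−1.27), the Notch pathway ligase gene Dtx4 (−1.11), monoamine oxidase Maoa (−1.09), the membrane protein gene Tmem150a (−1.06), the lysosomal carrier Mfsd1 (−1.03), Morn2 (−1.02) and the Wnt pathway factor Tcf7 (−1.02). Csf1 and Axl, also among the 12 largest falls, are given with their lists.

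**Figure D3:**
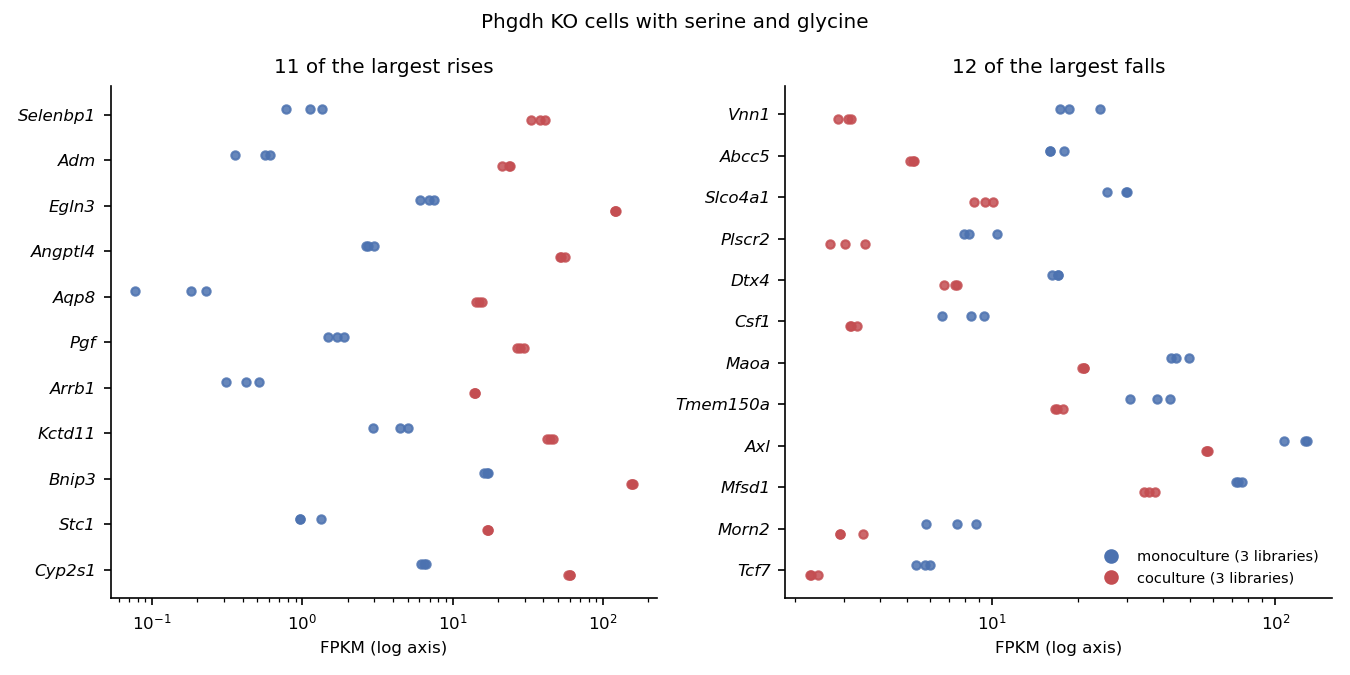
FPKM on a log axis of 11 of the largest rises (left) and the 12 largest falls (right) by the naming rule, in the 3 monocultures (blue) and 3 cocultures (red) of KO cells with serine and glycine. No gene's groups overlap, which the naming rule required, and rises such as Egln3, at 17.6 times the monoculture mean, exceed the falls in size.

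To ask whether the response was particular to KO cells, it was set against that of WT cells in the same medium, which share no library with it. Across the 12061 genes the changes correlated at a Pearson r of 0.67 and a Spearman rho of 0.56, given as a description since genes are not independent. In WT cells 3763 genes (31.2%) were called, 16.3% up and 14.9% down. Of the 2429 genes that rose in KO cells 1368 (56.3%) also rose in WT cells, 69.5% of the 1969 that rose there, and 33 fell. Of the 371 that rose at least 2-fold, 333 (89.8%) rose in WT cells, and of the 2395 that fell 1075 (44.9%) fell there. The difference between the changes, tested directly as an interaction, was called for 1251 genes (10.4%), 601 with a more positive change in KO cells (4.98%) and 650 with a more negative one (5.39%).

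The hypoxia genes rose in both genotypes. Of the 34 hypoxia genes 31 rose in each genotype, with medians of 1.66 in KO and 1.67 in WT cells. The difference was called for 10 of them, 1 more positive and 9 more negative in KO cells, against 4.98% and 5.39% of all genes. Loxl2 rose by 1.62 in KO and 3.38 in WT cells (difference −1.76 ± 0.14, adjusted p = 1.31e-07). When voom was run on the recovered reads, a fit of ratios rather than of log2(FPKM + 1), that difference was −0.46 (adjusted p = 0.600). Bhlhe40 rose by 0.83 and 1.52 (difference −0.69, adjusted p = 1.53e-06). Angptl4 was the one with the larger rise in KO cells (3.84 and 2.81, difference 1.03 ± 0.11, adjusted p = 5.96e-06). The ribosome biogenesis list parted the genotypes in one direction: its median was −0.45 in KO and −0.17 in WT cells. For 14 of its 32 genes the difference was called, all 14 more negative in KO cells, against 5.39% of all genes. Nolc1 changed by −0.82 in KO and −0.23 in WT cells (difference −0.59, adjusted p = 0.000714). For 0 of the 37 ribosomal protein genes was the difference called, against 10.4% of all genes in either direction.

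By the naming rule, the genes whose change was most above that of WT cells began with Prl2c5, a proliferin gene of the prolactin family. It went from 0, 0.175 and 0.345 FPKM to 6.49, 8.17 and 7.24 in KO cells and from 0 ± 0 to 0.349 ± 0.178 (SD, n = 3) in WT cells, a difference of 2.40 ± 0.17 (adjusted p = 7.1e-08). With limma voom on the recovered reads the difference was 1.87 (adjusted p = 0.331). The WT monocultures held no read of it, so neither value is a bound, and its family has near-identical members, so its reads are uncertain. Sprr1a was abundant in WT cells in both cultures, at 164 ± 11.5 and 204 ± 4.89, and low in KO monoculture, so that its rise in KO cells narrowed the gap (difference 2.37 ± 0.08, adjusted p = 4.96e-13). Aqp8 reached 2.01 ± 0.735 in WT coculture and 15.0 ± 0.686 in KO coculture (difference 2.24 ± 0.15), but its monoculture levels were near 0 and with voom the difference was 0.16 (adjusted p = 0.917). The collagenase gene Mmp13 rose in KO cells (1.05 ± 0.12) and fell in WT cells (−0.76), with a difference of 1.80 ± 0.17 (adjusted p = 1.23e-06). The difference of Depp1, 1.62 ± 0.24, came from a fall in WT cells (−1.43), while its change in KO cells did not pass (0.19, adjusted p = 0.406).

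The genes most below WT cells were led by the alarmin gene Il33. It was 0.290 ± 0.0587 FPKM in WT monoculture and 5.46 ± 0.635 in WT coculture, a rise of 2.32, but 0.998, 0.584 and 0.4998 and 0.762, 1.05 and 0.810 in the KO cultures (0.15 ± 0.12, adjusted p = 0.349). The difference was −2.17 ± 0.18 (adjusted p = 2.07e-07). Fgfbp1, a carrier of fibroblast growth factors, fell in KO cells (−0.76 ± 0.10) and rose in WT cells, from 2.62 ± 0.321 to 6.28 ± 0.776 FPKM, a difference of −1.76 ± 0.14. Plppr3, a phospholipid phosphatase-related gene, rose in both, by 1.42 and 2.81 (difference −1.39 ± 0.17). The apolipoprotein gene Apob, a hepatocyte marker that WT cells also express in monoculture at 34.1 ± 0.437, rose to 68.6 ± 3.28 in WT coculture and was 2.26 ± 0.453 and 1.61 ± 0.162 in the KO cultures (difference −1.30 ± 0.13, adjusted p = 1.95e-06). Its small fall in KO cells (−0.31) lost its call without monoculture replicate 1 or coculture replicate 3, with an adjusted p of up to 0.0676, and with only the groups compared in the model (0.119).

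**Figure D4:**
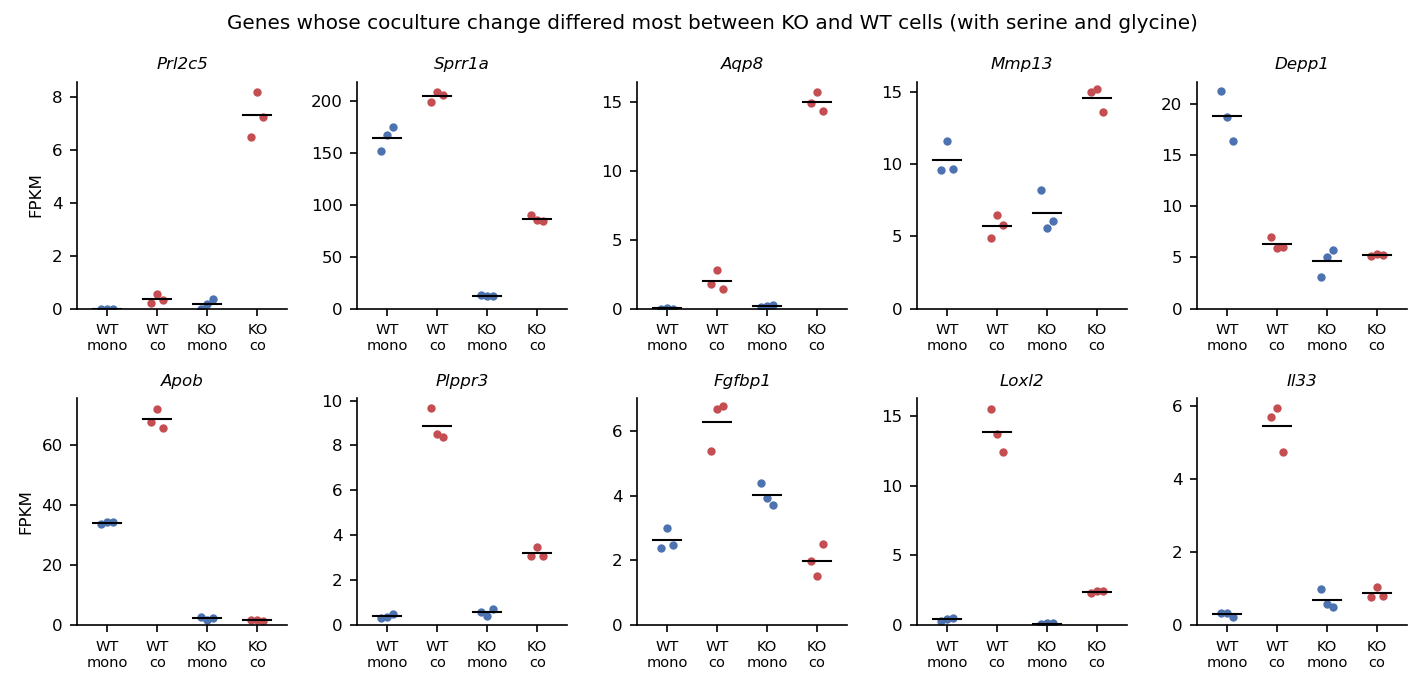
FPKM in each of the 3 libraries (points) and their mean (bar) for WT and KO cells with serine and glycine, in monoculture (blue) and coculture (red), for the 5 most positive (top) and 5 most negative (bottom) differences of the coculture change. Each panel has its own axis from 0; Il33 has a mean of 5.46 in WT coculture and stays at or below 1.05 in the KO libraries.

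The same KO cells without serine and glycine responded to hepatocytes far more widely, with 8594 genes (71.3%) called, 35.0% up and 36.3% down. Across genes the changes with and without serine and glycine correlated at a Pearson r of 0.40 and a Spearman rho of 0.30, a description only. Of the 371 genes that rose at least 2-fold with serine and glycine, 312 (84.1%) also rose without them and 20 fell. Of the 32 that fell at least 2-fold, 7 fell without serine and glycine and 13 rose. The difference of the changes was called for 6962 genes (57.7%), 3597 more positive (29.8%) and 3365 more negative (27.9%) with serine and glycine.

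**Figure D5:**
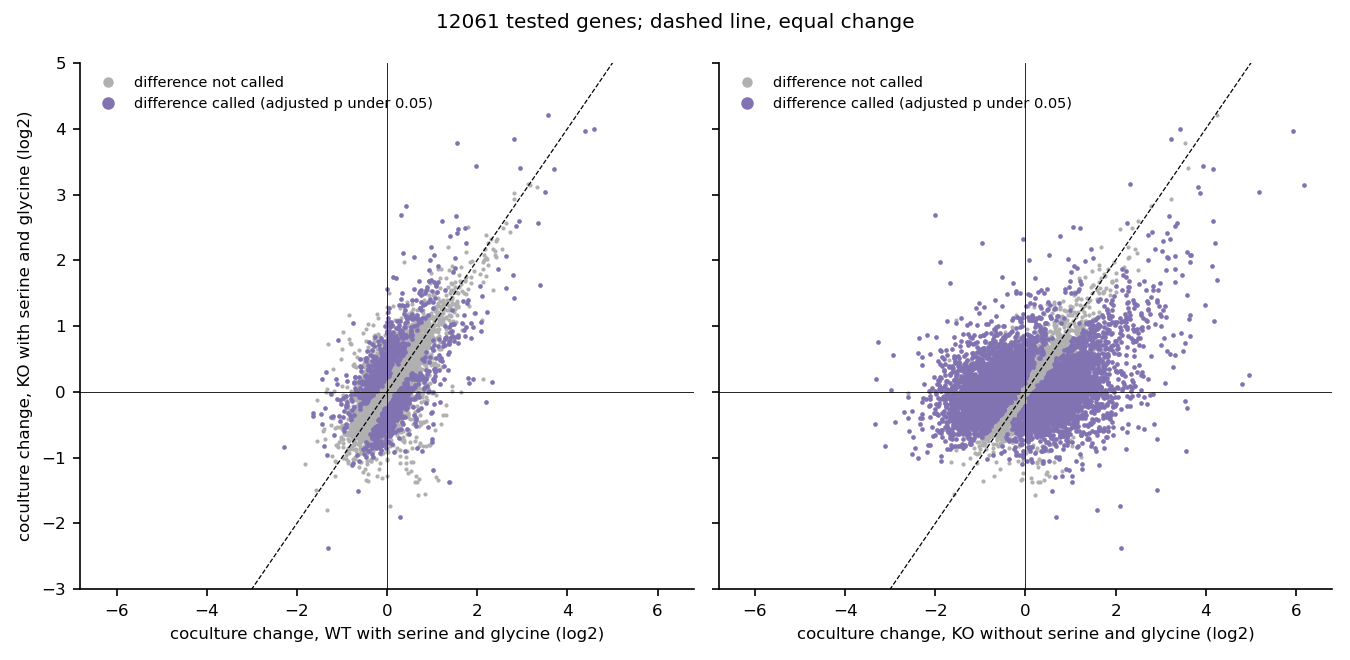
Log2 coculture change of the 12061 genes in KO cells with serine and glycine (vertical) against that in WT cells with serine and glycine (left) and KO cells without them (right). Purple points are the 1251 and 6962 genes whose difference was called, and the dashed line marks equal change.

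The hypoxia genes rose in both media, often more without serine and glycine. Of the 34, 20 had a more negative and 9 a more positive difference, against 27.9% and 29.8% of all genes. Bnip3 rose by 3.14 with and 6.19 without serine and glycine (difference −3.05 ± 0.10, adjusted p = 8.91e-15), and Egln3 by 3.96 and 5.92 (difference −1.96). Adm went the other way, with a larger rise where serine and glycine were present (difference 0.56 ± 0.15, adjusted p = 0.00351). Slc2a1 (0.695) and Pgk1 (0.87) had adjusted p-values for the difference above the threshold, with changes of 1.79 and 1.75, and of 1.98 and 1.97.

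The S phase and cholesterol lists had their called genes mostly in opposite directions in the 2 media. For comparison, 35.0% of all genes rose and 36.3% fell in coculture without serine and glycine. The difference was positive and called for 29.8% of all genes and negative and called for 27.9%. Of 39 S phase genes 14 rose and 2 fell with serine and glycine, whereas 36 fell and 0 rose without them, and the difference was positive and called for 38. Rrm2 changed by 0.55 and −2.94 (difference 3.49 ± 0.17, adjusted p = 3.46e-12). Of 25 cholesterol genes 12 fell and 0 rose with serine and glycine, whereas 24 rose and 0 fell without, the difference being negative and called for 24. Scd2 showed the contrast in fatty acid desaturation, with 630.5 ± 70.9 and 682 ± 11.8 FPKM (SD, n = 3) in the cultures with serine and glycine and 13.5 ± 0.472 and 401 ± 32.2 in those without (difference −4.67 ± 0.09, adjusted p = 1.2e-17). The clock repressor Nr1d1 rose by 0.76 with and changed by −3.27 without serine and glycine (difference 4.03 ± 0.15). Of the 37 ribosomal protein genes, few of which were called with serine and glycine, 24 rose without them, against 35.0% of all genes, and 23 differences were negative and called, against 27.9%.

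Single genes differed between the media as well. Sprr1a rose by 2.69 with serine and glycine and changed by −2.01 without them, the largest positive difference by the naming rule (4.70 ± 0.08, adjusted p = 1.57e-18). Dynap, a gene for a dynactin-associated protein, rose by 1.66 and changed by −1.67 (difference 3.33). The EGF receptor ligand gene Ereg did not pass with serine and glycine (0.20, adjusted p = 0.234) and changed by −3.32 without (difference 3.52). Without monoculture replicate 1 its change with serine and glycine was 0.36 and was called (adjusted p = 0.0193). Vnn1, the largest fall, rose from 0.759 ± 0.0996 to 6.67 ± 0.986 FPKM (mean ± SD, n = 3) without serine and glycine (difference −4.49 ± 0.18, adjusted p = 1.76e-13). Slco4a1 (−4.42) and the glutathione transferase gene Gstm1 (−4.46) were also lower in coculture with serine and glycine and higher without. Gapdh had the most negative difference (−4.71 ± 1.78, adjusted p = 0.0301), from 5.54 ± 8.17 to 122 ± 45.9 FPKM without serine and glycine. That call was lost when any 1 of 6 libraries was left out (adjusted p of up to 0.0766) and with no filter on low values (0.0712).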

How the data were processed

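RNA from 24 libraries of mouse HY19636 cells, 8 groups of 3, had been aligned with HISAT2 to GRCm38, per the submitters' processing notes. The authors deposited one table of FPKM per gene and library. No source used here gives the counting tool, annotation release, use of strand or the total behind the scaling. FPKM times gene length gave whole reads for 100% of values to within 0.01 read, and these recovered read counts gave the depths of the deposited libraries. With R 4.3.3 and limma 3.58.1, log2(FPKM + 1) of the 12061 genes that reached an FPKM of 1 in 3 or more libraries was fitted to 8 group means, with a mean-variance trend and Benjamini-Hochberg adjustment over all genes. Contrasts were coculture minus monoculture, and the difference of that contrast between groups. For single genes, exact permutation of 3 against 3 libraries cannot go below p = 0.1. The model was tested on simulated data.

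Replicates were grouped by the labels. No libraries had identical values. Alternatives were other pseudocounts, filters, scalings, voom on the recovered reads, fewer groups, a replicate block and leaving out each library. Rescaling to plain library totals was chosen after seeing the data. The members and gene lists were chosen with earlier results of these data known.

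Named genes were Phgdh, the 12 largest called rises and falls among protein-coding genes with no overlap between groups and a higher group averaging 5 FPKM or more, up to 4 called rises and falls of each list, all tested hypoxia, glycolysis and serine genes, the highest genes of marker lists, and the 5 most positive and most negative called differences. Predicted and clone names were left out, and some genes that the rule names are not reported here. Named marker genes without reads were chosen after their values were seen. Promoter windows came from RefSeq (GRCm38.p6), matched by symbol.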

Additional observations from a re-analysis of the deposited data

Results flagged for a closer look

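The results here stand out because the response to hepatocytes differed between KO cells with serine and glycine and another group, by a limma test of the difference itself (adjusted p under 0.05). Against WT cells in the same medium 1251 genes differed. Of Phgdh, the genes with the largest rises and falls and those with the largest differences, the coculture change was more positive in KO cells for Selenbp1 (0.64), Angptl4 (1.03), Aqp8 (2.24), Pgf (1.46), Arrb1 (0.46), Prl2c5 (2.40), Sprr1a (2.37), Mmp13 (1.80) and Depp1 (1.62) on the log2(FPKM + 1) scale. It was more negative in KO cells for Adm (−0.59), Egln3 (−0.43), Cyp2s1 (−0.47), Vnn1 (−1.05), Abcc5 (−0.85), Dtx4 (−0.33), Maoa (−0.34), Axl (−0.43), Il33 (−2.17), Loxl2 (−1.76), Fgfbp1 (−1.76), Plppr3 (−1.39) and Apob (−1.30). For Aqp8, Prl2c5 and Loxl2, with levels near 0 in monoculture, the difference did not pass with voom on the recovered reads.

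Against KO cells without serine and glycine 6962 genes differed. Of the same kinds of genes the change was more positive with serine and glycine for Phgdh (0.84), Adm (0.56), Angptl4 (0.60), Kctd11 (0.85), Sprr1a (4.70), Nr1d1 (4.03), Ereg (3.52), Rrm2 (3.49) and Dynap (3.33). It was more negative for Egln3 (−1.96), Pgf (−0.49), Bnip3 (−3.05), Stc1 (−0.70), Cyp2s1 (−2.14), Vnn1 (−4.49), Abcc5 (−2.10), Slco4a1 (−4.42), Plscr2 (−2.31), Dtx4 (−2.75), Maoa (−1.48), Axl (−1.45), Mfsd1 (−0.17), Morn2 (−0.66), Tcf7 (−1.15), Gapdh (−4.71), Scd2 (−4.67) and Gstm1 (−4.46). The value of Gapdh rests on libraries that spread widely.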

How the results depend on the processing

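Of the counts of called genes, 2 moved by over 1.5 times, both when only the libraries of the comparison were fitted: 2840 for the coculture change (4824 with all groups) and 769 for the difference from WT cells (1251). Fewer samples then estimate the spread, and monoculture replicate 1 has a larger part in it. The part of either in the drop was not tested. Leaving out single libraries gave 4102 to 4976, 885 to 1604 and 6591 to 7208 called genes for the coculture change, the difference from WT cells and the difference from KO cells without serine and glycine. The split of higher and lower calls was 2125 and 2912 with quantile normalization. For single named genes, 1 value reversed: Scd2 was −0.20 (adjusted p = 0.00802) with quantile normalization. Across the other settings 2503 coculture changes of named genes (1 per gene and setting) kept their direction and side of the threshold, 54 lost the call and 14 gained one. Leaving out libraries, 1487 kept both, 62 lost the call and 11 gained one. For the named differences from WT cells and from KO cells without serine and glycine, 97 and 99 kept both and 3 and 1 lost the call across the other settings, and 120 and 114 kept both and 0 and 6 lost it without single libraries. With a replicate block the counts were 4635, 1062 and 6820, and none of these 3 moved by 1.5 times. Voom on the recovered reads called 4877 genes for the coculture change, 2495 higher and 2382 lower. Same-numbered libraries did not deviate together (correlations −0.01, −0.02 and 0.02), so the numbers were not taken as a pairing. Genes at low FPKM are limited by depth: their changes depend on the pseudocount.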

Other observations

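Some lists with a small median change in KO cells with serine and glycine still held genes whose change differed from that in WT cells. Of 23 lysosome and autophagy genes, 6 had a more positive and 0 a more negative coculture change in KO cells, against 4.98% and 5.39% of all genes. Of 16 inflammatory genes 5 were more negative and 0 more positive, and of 18 mesenchymal, TGF-beta and YAP genes 6 were more negative and 3 more positive. For the 13 mitochondrially encoded genes and the 31 nuclear respiratory chain genes the difference was called for 0. Against KO cells without serine and glycine, 23 of the 31 respiratory chain genes had a more positive change and 1 a more negative one, while 17 of 20 ER chaperone genes had a more negative and 2 a more positive one, against 29.8% and 27.9% of all genes.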
